A study of Danio rerio with 24 samples.

Results

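The DNA methylation of zebrafish pigment cells, iridophores and melanophores together, was set against that of neural crest cells (NCCs), from which they arise, late and early stages together. The members are 500-bp tiles of the genome, counted from position 0 of each chromosome, that hold at least 5 CpGs with at least 5 reads in each of the 4 libraries. Of 2597411 tiles with any listed CpG, 1358966 (52.3%) met this rule. The whole-genome bisulfite sequencing (WGBS) samples number 8 of the 24 in the series, and the study compared them to follow the epigenome as NCCs become pigment cells.

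Iridophores and melanophores were taken from mlphaj120 larvae at 4 to 5 dpf, on a density gradient followed by flow sorting. mlphaj120 is a melanophilin mutant in which melanosomes disperse less. Late NCCs at 24 hpf and early NCCs at 15 somites were sorted as GFP-positive cells from Tg(crestinA:EGFP) embryos, in which an element of the crestin gene drives EGFP in neural crest. Strain, age, isolation and cell type all change between the sides and cannot be told apart. The authors combined 2 replicates into 1 library per cell type. No value therefore has a replicate spread, and the libraries of one side are different stages or cell types and not repeats of one another.

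Vertebrate genomes carry methyl groups on most CpGs, and the CpG-dense starts of many genes are kept free of them. Methylation is copied at each round of DNA replication by a maintenance methyltransferase, and it is lost either passively, when copying fails, or actively, through oxidation by TET enzymes. In differentiating cells, local loss is often seen at CpG-poor distal enhancers, while gain over CpG-dense DNA is a known companion of silencing. The neural crest is a migratory population of the embryo, and in fish its pigment derivatives include black melanophores and reflective iridophores, which hold purine crystals.

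Bisulfite converts unmethylated cytosines, so a sequenced CpG reads as either state. The level of a tile is the mean of its CpG levels, in percent. The median tile held 9 such CpGs and 1233 reads over the 4 libraries, and the median CpG had 21 reads in iridophores and 29 in melanophores, against 25 in late and 17 in early NCCs. Tiles under 20% in all libraries, which number 46576, had median levels of 0.943% in iridophores and 0.901% in melanophores, against 0.792% in late and 0.909% in early NCCs. The unmethylated end of the scale was thus within 1 point of 0 in all libraries.

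Pigment cells were less methylated than NCCs across the genome. The mean tile level was 81.5% in iridophores and 81.9% in melanophores, against 85.2% in late NCCs and 86.2% in early NCCs. Both pigment cells lay below both NCC stages, and each side spanned less than the step between them. The mean difference, pigment cells minus NCCs, was -4.00 percentage points, against -0.40 for iridophores minus melanophores and -0.99 for late minus early NCCs. An exact permutation test over the 4 libraries gave a two-sided p of 0.333, the smallest that 2 libraries against 2 can give.

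Before scaling, the step was present on every chromosome and in every megabase examined. The chromosome mean ran from -4.33 points on chromosome 13 to -3.53 on chromosome 22. In all 1330 1-Mb bins with at least 500 tiles the mean was below 0, from -9.34 points (chromosome 7, 27 to 28 Mb) to -0.895 (chromosome 2, 57 to 58 Mb). The library medians of the sides differed by -3.54 points. Centring each library on its median removes this shift from every mean alike. The means of chromosome 22 and of bins nearer 0 than this shift would then be above 0. Without centring, late minus early NCCs was below 0 in 1320 of the 1330 bins and iridophores minus melanophores in 1106. The standard deviation over bins was 1.24 points between the sides, against 0.468 between the pigment cells and 0.400 between the NCC stages.

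Before scaling, most tiles were lower in pigment cells, and the tiles with large falls weighed heavily in the net change. Of all tiles, 76.9% had a lower mean in pigment cells, with a median difference of -2.10 points. This median is nearer 0 than the -3.54 points between the library medians. With each library centred on its median, most tiles would therefore be higher in pigment cells, so this majority depended on the scaling. Without centring, the tiles more than 10 points lower made up 10.7% of the total, and their sum was 62.5% of the summed net change. They were picked on the difference that is summed. Tiles with a positive difference offset part of the falls, so such shares over all falling tiles add to more than the whole. The tiles at least 30 points lower in both pigment cells than in both NCC stages held 16.9% of it, and without the tiles 30 points apart in either direction the mean difference was -3.37 points.

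Set against the within-side differences tile by tile, the between-side difference was the largest of the 3 in 41.2% of tiles. It joins means of 2 libraries and carries less noise than a difference between single libraries. With the within-side differences divided by the square root of 2, to match, the share was 55.6%. The share that would arise without a difference between the sides was not computed. In 48.6% of tiles both pigment cells lay below both NCC stages, in 8.57% both lay above, and in 42.8% the sides overlapped. The median size of the difference was 2.66 points between the sides, 2.15 between the pigment cells and 1.93 between the NCC stages. Divided in the same way, the within-side medians were 1.52 and 1.36 points, so that the between-side median was larger than both.

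The sides separated in the tails. The root mean square (RMS) difference between the sides was 9.52 points after the variance expected from read counting was subtracted. The same quantity was 6.36 points between iridophores and melanophores and 3.29 between late and early NCCs. Divided as above, the within-side values were 4.50 and 2.32 points.

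**Figure D1:**
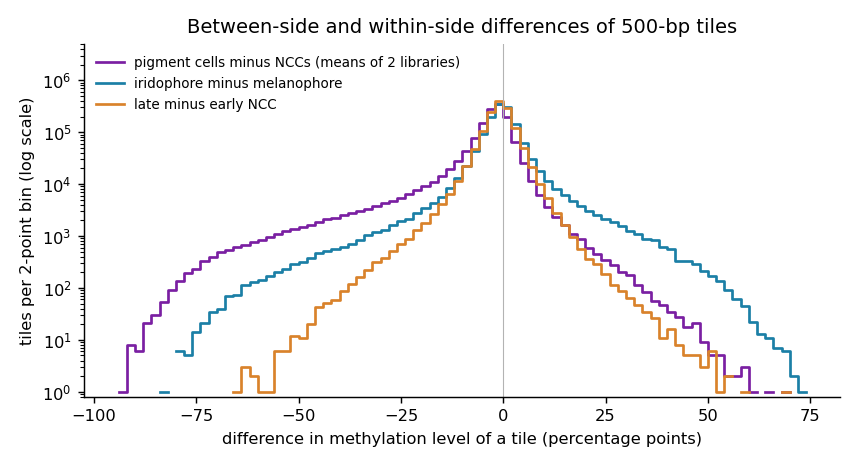
Number of tiles per 2-point bin (log scale) by difference in methylation level (percentage points), for pigment cells minus NCCs, iridophores minus melanophores, and late minus early NCCs. The between-side curve has a long negative arm toward -90 points, while its positive arm stays below that of iridophores minus melanophores.

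The 6 differences between single libraries gave the same ordering without averaging. Iridophores were at least 30 points lower than late NCCs in 34793 tiles (2.56% of all) and than early NCCs in 41990 (3.09%). For melanophores these counts were 35361 (2.60%) and 43101 (3.17%). Iridophores were at least 30 points lower than melanophores in 8216 tiles (0.605%), and late NCCs lower than early NCCs in 1116 (0.0821%). In this direction all pairs that cross the sides had more than 4 times as many such tiles as either pair within a side. The direction of iridophores minus melanophores is arbitrary, however. Melanophores were at least 30 points lower than iridophores in another 6959 tiles (0.512%), which this ratio leaves out.

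In the other direction the order changed. Iridophores were at least 30 points above late NCCs in 973 tiles and above early NCCs in 1191, and melanophores in 680 and 911. Iridophores were at least 30 points above melanophores in 6959 tiles, more than in any of those cross-side pairs. Late NCCs exceeded early NCCs by this much in 230 tiles. Large positive differences from NCCs were thus rarer than large differences between the pigment cells.

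A gap of 30 points between the sides, the highest library of one below the lowest of the other by at least that much, was found in 17254 tiles with pigment cells lower (1.27% of tiles) and in 217 with pigment cells higher (0.016%). At 10 points the counts were 71816 lower and 5122 higher, at 20 points 31832 and 1038, at 40 points 9470 and 38, and at 50 points 4590 and 5. The share of lower tiles grew with the gap, being 93.3% at 10 points, 98.8% at 30 and 99.9% at 50. Leaving out the tiles whose coverage relative to their library differed at least 2-fold between the sides, an alternative chosen after seeing the data, left 17207 lower and 201 higher tiles.

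The test of single tiles asked whether the step exceeded the spread between the libraries of a side, with limma on tile levels and Benjamini-Hochberg adjustment over all tiles at 0.05. It called 43005 tiles lower in pigment cells (3.16%) and 2660 higher (0.196%), with median differences of -29.0 and 19.4 points. Of the 30-point tiles, 92.7% of the lower and 96.3% of the higher were among these calls. At an unadjusted p under 0.05 there were 263820 lower and 24650 higher tiles among the 1358966 tested. If the test's assumptions held, this threshold would pass more than 24650 tiles in that direction without any difference. Nothing is therefore read from the unadjusted higher count.

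The calls depended on the scale and the scaling, and they rested on 2 libraries per side. With limma on the log2 ratio of methylated to unmethylated reads 0 tiles passed the adjusted threshold in either direction. At an unadjusted p under 0.05 this fit had 277044 lower and 25580 higher tiles, and nothing is read from the higher count here either. With the median of CpG levels as tile level 2477 lower and 57 higher tiles passed the adjusted threshold. The library medians of pigment cells and NCCs differed by -3.54 points. With each library centred on its median, which removes this shift, limma called 33335 tiles lower and 30046 higher, 52.6% lower against 94.2% without centring, and with quantile normalization it called 29551 lower and 33616 higher, 46.8% lower. Of the tiles called higher after centring, 58.7% had a 4-library mean under 20%, and 74.6% had differed by less than 5 points before it. Of the tiles 30 points apart, 97.5% were lower after centring and 90.01% after quantile normalization. Without early NCCs 0 tiles passed limma's adjusted threshold in either direction (110458 lower and 18485 higher at an unadjusted p under 0.05), without late NCCs 3864 lower and 38 higher did, without melanophores 135995 and 7049, and without iridophores 134317 and 5626.

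The difference depended on the level of the tile. In tiles with a 4-library mean of 95 to 100% the mean difference was -1.24 points, at 90 to 95% it was -2.64, at 80 to 90% it was -4.20, at 60 to 80% it was -8.80 and at 40 to 60% it was -16.0. The mean difference was therefore largest at intermediate levels. The median differences varied less. They were -1.21 points at 95 to 100%, -2.41 at 90 to 95%, -2.60 at 80 to 90%, -3.51 at 60 to 80% and -4.15 at 40 to 60%. The means in the 40 to 60% bin were 44.5% in iridophores and 45.5% in melanophores, against 58.9% in late and 63.1% in early NCCs. This bin held 2.18% of tiles, and 20.8% of those were 30 points lower, against 5.09% in the 60 to 80% bin and 0.0165% in the 80 to 90% bin. A tile with such a gap has an intermediate 4-library mean by construction, and one with a mean above 90% cannot hold it. Removing the median shift adds the same amount to every bin, and the mean difference was then -12.5 points at 40 to 60%, -0.65 at 80 to 90%, 0.90 at 90 to 95% and 2.30 at 95 to 100%.

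At low levels the sign changed. In the 20 to 40% bin 34.9% of tiles had both pigment cells above both NCC stages and 28.7% had both below, with a median difference of 0.50 points but a mean of -0.80, since 360 tiles were 30 points lower and 61 were 30 points higher. Under 20% the shares were 26.7% above and 17.1% below, with a mean of 0.63 points and a median of 0.07. The mean under 20% was 4.17 points after centring and 0.59 after quantile normalization, and that of the 20 to 40% bin was 2.75 and 9.70. Centring adds the same amount to every tile, so the centred means of these bins are no separate evidence. Before scaling and after quantile normalization, tiles under 20% were on average no lower in pigment cells. In the 20 to 40% bin the sign of the mean depended on the scaling.

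When tiles were binned by NCC level alone, those under 20% had a mean difference of 1.18 points and those at 95 to 100% one of -4.96 points. When they were binned by pigment cell level, tiles at 95 to 100% had a mean difference of 0.09 points and tiles at 20 to 40% one of -27.5. Binning on one side favours tiles in which that side is extreme, so the bins of level used elsewhere are of the 4-library mean.

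CpG density was the other axis. Tiles with 5 to 9 listed CpGs had a mean difference of -5.09 points, those with 10 to 14 had -4.16, with 15 to 19 had -3.01, with 20 to 29 had -1.73 and with 30 or more had -0.79. Before scaling, the step was smaller in each denser bin. After centring the means over these bins were -1.54, -0.62, 0.53, 1.81 and 2.75 points. After quantile normalization they were -0.79, -0.18, 0.75, 1.78 and 2.41 points. The sign in tiles with 15 or more listed CpGs thus depended on the scaling. The share of tiles 30 points lower was 1.68%, 1.38%, 0.85%, 0.346% and 0.0209% over these bins, while that of tiles 30 points higher was 0.00561%, 0.0163%, 0.0219%, 0.0458% and 0.0186%. Higher tiles were thus more frequent in denser bins up to 29 CpGs while lower tiles were rarer, and at 30 or more CpGs the counts were 9 lower and 8 higher.

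Within-side differences shrank with density as well. With counting variance subtracted, the RMS difference was 10.8 points between the sides, 5.19 between pigment cells and 2.46 between NCC stages in tiles with 5 to 9 CpGs, the within-side values divided as above. In tiles with 30 or more CpGs the values were 3.35, 1.64 and 1.81 points. The between-side difference was the largest of the 3 in 41.2% of the sparsest tiles and in 34.6% of the densest. The sparsest tiles also had the fewest reads, with a median of 829 over the 4 libraries against 4241 in the densest.

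**Figure D2:**
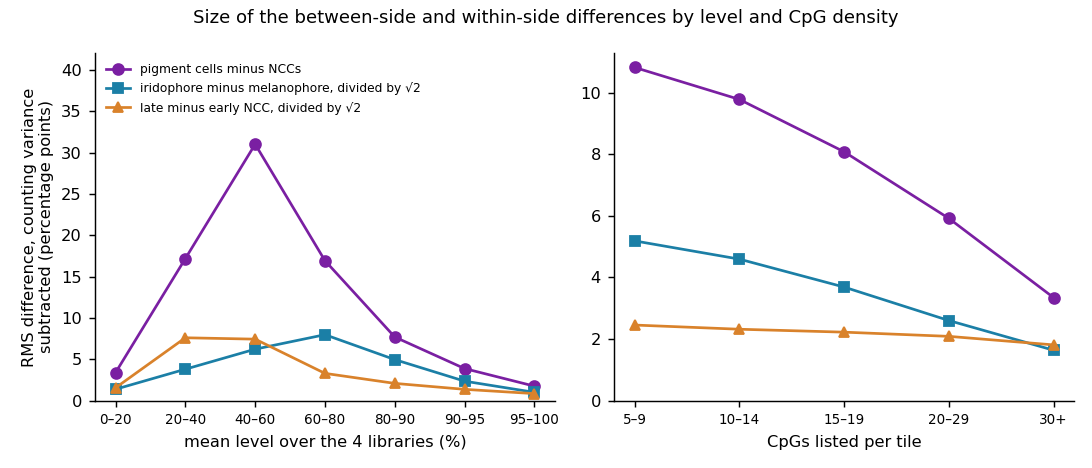
RMS difference in methylation level (percentage points, counting variance subtracted) by 4-library mean level (left) and by listed CpGs per tile (right), for pigment cells minus NCCs and for the 2 within-side differences divided by the square root of 2. The between-side points lie highest in every bin and reach 31.0 points at 40 to 60%.

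The sign of the difference depended on level and density together. In the 40 to 60% bin the mean difference was -16.7 points with 5 to 9 CpGs, -19.3 with 10 to 14, -14.5 with 15 to 19, -2.05 with 20 to 29 and 5.16 with 30 or more. With 20 to 29 CpGs the median was 2.40 points, of the other sign than the mean. On average and before scaling, the sparsest tiles of 20 to 60% were lower in pigment cells and the densest were higher. The densest cell at 40 to 60% held 407 tiles. At 60 to 80% the tiles with 30 or more CpGs had a mean of -0.74 points. In the 20 to 40% bin the means ran from -4.90 points with 5 to 9 CpGs to 6.21 with 30 or more, where 274 tiles lay. Above 80% every density bin had a negative mean before centring.

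**Figure D3:**
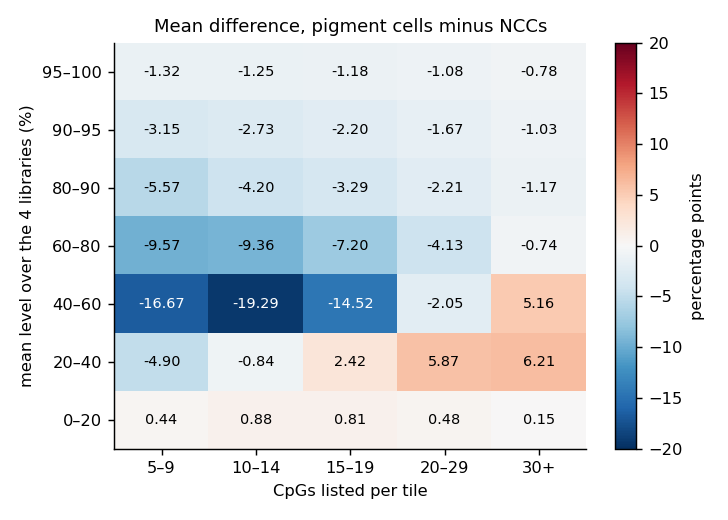
Mean difference in tile level, pigment cells minus NCCs (percentage points, colour and printed value), by 4-library mean level (rows, %) and listed CpGs per tile (columns). The most negative mean is -19.29 points at 40 to 60% and 10 to 14 CpGs, and positive means fill the 0 to 20% row and the dense end of the 20 to 60% rows.

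Complete switches between the sides were rare. Tiles are grouped here by the NCC stages alone, which favours pigment cell levels nearer the middle than those of NCCs. Of 1084315 tiles above 80% in both NCC stages, 909161 (83.8%) were above 80% in both pigment cells, 73163 (6.75%) lay between 20 and 80% in both, and 513 (0.0473%) were under 20% in both. Of 48795 tiles under 20% in both NCC stages, 46576 (95.5%) were also under 20% in both pigment cells, 1320 (2.71%) lay between 20 and 80%, and 0 were above 80%. A count of 0 would allow up to 3 only if tiles were independent draws, which neighbouring tiles are not. Of 147830 tiles between 20 and 80% in both NCC stages, 923 were under 20% and 5806 above 80% in both pigment cells.

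The tiles 30 points lower in pigment cells were sparse in CpGs and seldom unmethylated. Their median level was 35.2% in iridophores and 37.2% in melanophores, against 88.2% in late and 94.8% in early NCCs. These levels chose the tiles and are a description. Only 9.58% were under 20% in both pigment cells, and 74.6% were above 80% in both NCC stages. The median tile of this class had 9 listed CpGs, against 11 over all tiles, and in the median tile all counted CpGs (100%) had both pigment cells below both NCC stages, against 25% over all tiles.

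Late NCCs took an intermediate place in these tiles. The gap rule puts both NCC stages above both pigment cells and leaves only the order of the stages free. Early NCCs were the higher stage in 15345 of the 17254 (88.9%) and late NCCs in 1908 (11.1%). Of the 660877 tiles with both pigment cells below both NCC stages by any amount, early NCCs were the higher stage in 67.0%. In the 17254 tiles the median difference, late minus early NCCs, was -4.99 points, against -0.78 over all tiles. Of the 17254, 26.4% were already at least 10 points lower in late NCCs, against 2.32% of all tiles. In the 17254 tiles the drop by 24 hpf was a median 9.14% of the full distance between early NCCs and pigment cells. These values come from the libraries that chose the tiles and are a description.

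Iridophores and melanophores differed within these tiles too. The median size of their difference was 8.29 points, against 2.15 over all tiles, and it exceeded 10 points in 42.5% of them against 7.75% of all. Levels near the middle of the range leave more room for differences, and the part of level in this was not tested.

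The 217 tiles higher in pigment cells were denser in the median, with median NCC levels that were low but above those of unmethylated DNA. An NCC mean under 20% was found in 70 of them. Their median levels were 71.6% in iridophores and 68.0% in melanophores, against 28.9% in late and 26.8% in early NCCs. They held a median of 15 listed CpGs but 10 counted ones, and 7.37% of them had an at least 2-fold coverage difference between the sides, against 0.272% of the lower tiles and 0.575% of all. Of the 217, 133 had late NCCs above early NCCs and 84 the reverse. The part of coverage in these tiles was not tested beyond the 201 that remained without such differences.

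Chromosomes held unequal shares of the higher tiles. Chromosome 22 had 28 of the 217 (0.0661% of its tiles), against 0.016% of all tiles. Chromosome 24 had 17 (0.0394%), chromosome 4 had 22 (0.0375%) and chromosome 6 had 20 (0.0332%). Chromosomes 10, 12, 13 and 23 had 2 each, or 0.0037% to 0.0042% of their tiles. The lower tiles were spread more evenly, from 1.01% of tiles on chromosome 2 to 1.52% on chromosome 19. The megabase with most higher tiles was chromosome 3 from 28 to 29 Mb, with 7 higher and 8 lower, and that with most lower tiles was chromosome 12 from 8 to 9 Mb, with 74 lower and 0 higher.

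The lower stretches were short. Adjacent tiles 30 points lower formed 15266 stretches, of which 13466 (88.2%) were a single tile, 1638 were 2 tiles, 162 were 3 or more and the longest was 9. The higher tiles formed 196 stretches, of which 176 were a single tile. Around the centres of the lower stretches the mean CpG level within 250 bp was 34.2% in iridophores and 36.1 to 36.2% in melanophores, against 85.0 to 85.1% in late and 92.6% in early NCCs. In the bin centred 875 bp away, toward higher positions, it was 81.3% in iridophores and 81.2% in melanophores, against 86.3% in late and 87.4% in early NCCs. The difference there, pigment cells minus NCCs, was -5.62 points, and in the bin centred 1375 bp away it was -4.72, against -3.60 over all counted CpGs. All counted CpGs include dense and unmethylated DNA, and tiles with 5 to 9 listed CpGs had a mean of -5.09 points. The flanks were not matched in level or density. Whether their step was larger than that of like DNA was not tested.

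**Figure D4:**
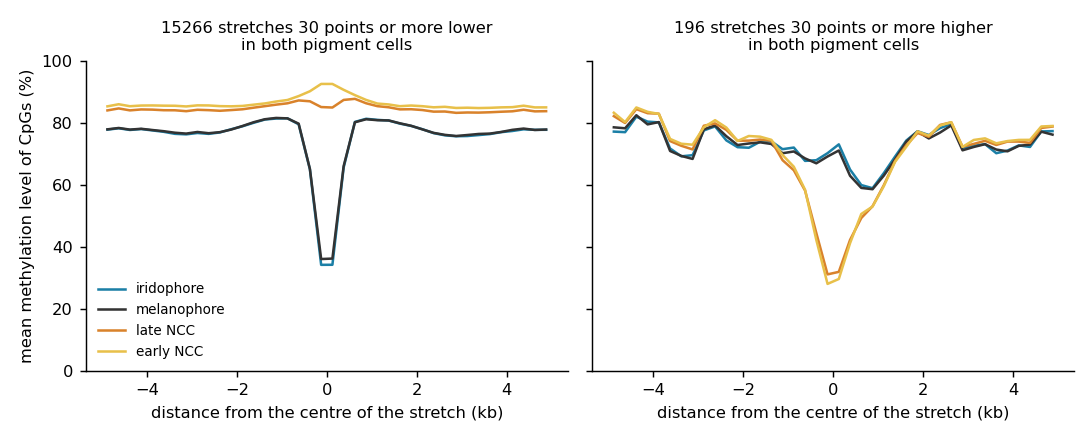
Mean methylation level of CpGs (%) by distance (kb) from the centre of stretches lower (left, 15266) or higher (right, 196) by at least 30 points in both pigment cells, in 250-bp bins. The central bins chose the stretches. On the left the pigment cell curves return to about 81% within 1 kb and dip again, to about 76%, near 3 kb on either side.

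Lower tiles recurred about 3 kb away. Among tiles 30 points lower, 21.2% of those with a counted neighbour at 500 bp had it 30 points lower too. This share was 4.82% at 1000 bp and 3.41% at 1500 bp, then 6.38% at 2500, 6.67% at 3000 and 6.30% at 3500 bp, 5.19% at 4500, 5.49% at 6000 and 4.29% at 10000 bp. The share therefore did not decline steadily with distance, and at all these distances it exceeded the 1.27% of all tiles. On each of the 25 chromosomes the share at 3000 bp was above that at 1500 bp. The share at 3000 bp ran over chromosomes from 3.74% to 12.3% and that at 1500 bp from 1.26% to 6.96%. For tiles 30 points lower in iridophores than in melanophores (0.605% of tiles), the like share was 2.52% at 1500 bp and 3.35% at 3000 bp. For tiles 30 points higher in iridophores (0.512% of tiles) it was 2.045% and 2.13%.

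The same spacing appeared in the whole table of differences, as a description across tiles, which are not independent. Pearson's correlation of the between-side difference between tiles was 0.364 at 500 bp (854614 pairs), 0.048 at 1500 bp (745429 pairs), 0.115 at 3000 bp (734612 pairs) and 0.072 at 10000 bp (718200 pairs). For iridophores minus melanophores the values at these distances were 0.233, 0.033, 0.046 and 0.024, and for late minus early NCCs 0.140, 0.031, 0.038 and 0.028. Tiles of one library pair share reads, depth and base composition with their neighbours.

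Lower tiles varied little in frequency with the distance from unmethylated DNA up to 50000 bp and were rarer beyond. Among tiles above 80% in both NCC stages, a choice on one side that favours negative differences at all distances, those 500 bp from a tile under 20% in all libraries had a mean difference of -4.00 points and 1.44% were 30 points lower. At 10500 to 50000 bp these values were -4.47 points and 1.33%, and beyond 50000 bp they were -4.45 points and 0.943%. Among these tiles, the lower ones were thus little more frequent next to unmethylated tiles than at 10500 to 50000 bp, and least frequent beyond 50000 bp.

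The 8 lower stretches with the largest summed gaps covered 4 to 9 tiles. Coordinates are those of the files, on danRer10, and run from the start of the first to the end of the last tile. The largest, on chromosome 22 from 11128000 to 11132499 (Lower 1), held 139 CpGs and had a level of 34.8% in iridophores and 36.5% in melanophores, against 86.5% in late and 95.6% in early NCCs. It rested on 26501 reads, and 92.8% of its CpGs had both pigment cells below both NCC stages. The highest pigment cell level lay about 50 points below the lowest NCC level there.

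The second, on chromosome 4 from 17061000 to 17063999, had 24.8% in iridophores and 32.7% in melanophores, against 81.2% in late and 91.2% in early NCCs (79 CpGs). The third, on chromosome 7 from 36280000 to 36282499, had 9.64% and 14.3% in the pigment cells, against 74.0% and 89.9% in late and early NCCs (87 CpGs). It combined low pigment cell levels with the largest step between the NCC stages of the 8, late minus early at -15.9 points.

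The fourth, on chromosome 5 from 41344500 to 41346499, had 17.4% in iridophores and 10.8% in melanophores, against 86.7% in late and 92.4% in early NCCs (38 CpGs), the largest difference of the 8 at -75.4 points. The fifth, on chromosome 12 from 8633000 to 8634999, had 18.2% and 23.5% in these pigment cells, against 87.4% and 95% in late and early NCCs (65 CpGs). It lies in the megabase with most lower tiles.

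The sixth, on chromosome 9 from 34127500 to 34129499, had 10% in iridophores and 17.5% in melanophores, against 79.4% in late and 92.5% in early NCCs (50 CpGs). The seventh, on chromosome 5 from 29396000 to 29398499, had 42.5% and 28.5% in the pigment cells, against 91.1% and 93.7% in late and early NCCs (78 CpGs), and the eighth, on chromosome 10 from 17382500 to 17384499, had 29.1% and 23.2%, against 89.6% and 93.7% (54 CpGs). Iridophores were the lower pigment cell in 5 of the 8 and melanophores in 3, with differences between them of -7.96 to 13.99 points. Counting error gave 95% half-intervals of 0.958 to 1.48 points on the between-side differences of these 8, under the assumption that reads at neighbouring CpGs are independent.

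The higher stretches were smaller, with 2 or 3 tiles and 20 to 37 CpGs each. The largest, on chromosome 24 from 16987000 to 16988499 (Higher 1), had 63.1% in iridophores and 41.0% in melanophores, against 1.79% in late and 2.65% in early NCCs. It rested on 1664 reads over 20 of 32 listed CpGs, with 14.3 reads per CpG in early NCCs. The pigment cells differed from each other there by 22.1 points, more than in any other named stretch.

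The second, on chromosome 25 from 35771500 to 35772499, had 51.4% and 56.7% in iridophores and melanophores, against 6.42% and 5.77% in late and early NCCs (31 CpGs). The third, on chromosome 5 from 53754000 to 53754999, had 47.2% and 49.6% in these pigment cells, against 2.23% and 1.03% in the NCCs, and all of its 29 CpGs (100%) had both pigment cells above both NCC stages. In both, NCC levels were near 0 and pigment cell levels near the middle of the range.

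The other 5 had early NCC levels of 3.82 to 23.1%. The fourth, on chromosome 3 from 28567500 to 28568499, had 66.2% in iridophores and 64.4% in melanophores, against 19.5% in late and 19.6% in early NCCs (30 CpGs). The sixth lies on the same chromosome from 28807000 to 28807999, with 55.7% and 52.2% in the pigment cells, against 15.8% and 6.83% in late and early NCCs (24 CpGs). Both lie in the megabase with most higher tiles.

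The fifth, on chromosome 24 from 38111000 to 38111999, had 46.6% and 53.3% in iridophores and melanophores, against 9.03% and 3.82% in late and early NCCs (32 CpGs). The eighth, on that chromosome from 35197000 to 35197999, had 59.0% and 62.1%, against 17.7% and 23.1% (37 CpGs), and the seventh, on chromosome 8 from 8429500 to 8430499, had 56.3% and 55.3%, against 21.5% and 17.7% (27 CpGs). No higher stretch reached the level of the genome mean in pigment cells. Of the 8, 3 lie on chromosome 24, which held 43167 of the 1358966 tiles and 17 of the 217 higher ones. The 8 were chosen for their gaps, and nothing is read from this count. Counting half-intervals on these 8 differences were 1.89 to 3.32 points.

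**Figure D5:**
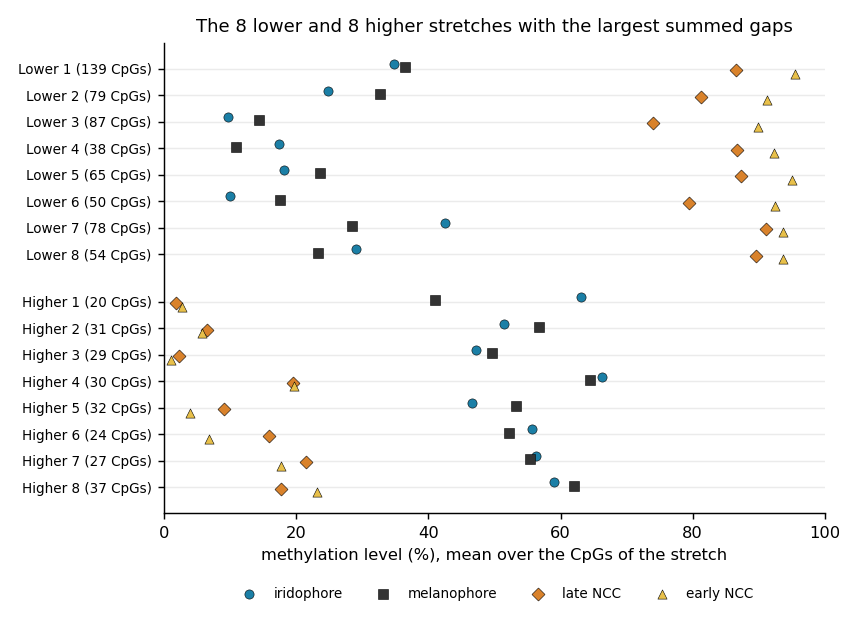
Methylation level (%, mean over CpGs) in iridophores, melanophores, late NCCs and early NCCs of the 8 lower and 8 higher stretches with the largest summed gaps, each marker 1 combined library. In the lower stretches all pigment cell markers lie at or under 42.5% and all NCC markers at or above 74.0%, and in the higher ones all pigment cell markers lie at or above 41.0% and all NCC markers at or under 23.1%.

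No gene is named for these stretches, since an annotation of danRer10 was not used here and none lies within 50 kb of the regions to which the study's own table gives a gene. The coordinates of that table were used for 48 regions near genes, mostly metabolic, whose expression changed in iridophores. The study chose these regions on these libraries for a change in methylation, accessibility or both, so their direction is no independent evidence. Of 19 genes with counted CpGs, 18 had a lower mean in pigment cells than in NCCs, where 76.9% of all tiles did, and the difference between the sides was larger than that between the pigment cells in 15. Of 61 tiles touching these regions, 15 were 30 points lower, against 1.27% of all tiles, and 16 were called lower by limma, against 3.16% of all. Nothing is read from these counts.

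Several regions chosen for iridophores were low in melanophores as well. Each level given for a gene joins the counted CpGs of all its regions, 3 at asns, 3 at gatm and 2 at hsd17b12b. A level near the middle can therefore join regions of unlike level. At asns, which encodes asparagine synthetase, the level was 37.8% in iridophores and 35.1% in melanophores, against 90.6% in late and 96.2% in early NCCs (35 CpGs). At gatm, whose product begins creatine synthesis, it was 26.2% and 34.5% in the pigment cells, against 62.2% and 63.1% in late and early NCCs (41 CpGs). At hsd17b12b, a lipid enzyme gene, it was 57.9% in iridophores and 49.0% in melanophores, against 92.7% in late and 93.7% in early NCCs (26 CpGs). The difference between the pigment cells was under 10 points in all 3.

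Others had an iridophore level far below that of melanophores, over 3 regions at psat1, 4 at adka and 6 at mthfd1l. At psat1, a gene of serine synthesis, the level was 37.1% in iridophores and 70.2% in melanophores, against 91.5% in late and 92.9% in early NCCs (24 CpGs). At adka, which encodes an adenosine kinase, it was 29.2% and 64.0% in the pigment cells, against 90.2% and 93.0% in late and early NCCs (66 CpGs). At mthfd1l, of mitochondrial folate metabolism, it was 13.9% in iridophores and 39.1% in melanophores, against 56.6% in late and 58.1% in early NCCs (69 CpGs). At these 3 genes the between-side difference joined unlike pigment cells.

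At acot18 and asl 1 pigment cell stood apart from the other. The level at acot18 was 34.0% in iridophores and 73.9% in melanophores, against 72.1% in late and 70.7% in early NCCs (7 CpGs), so melanophores stood with the NCCs. At asl, whose product makes arginine, it was 73.9% in iridophores and 41.6% in melanophores, against 88.7% in late and 92.2% in early NCCs, on 6 CpGs. Regions at phgdh, the first enzyme of serine synthesis, were unmethylated throughout, at 1.42% in iridophores and 2.998% in melanophores, against 4.74% in late and 3.90% in early NCCs (30 CpGs).

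In bisulfite reads a C-to-T base difference between strains looks like an unmethylated CpG, so switches of single CpGs were counted. A lone switched CpG had at least 10 reads in all libraries, 90% or more in both libraries of one side and 10% or less in both of the other, and neighbours within 100 bp that differed by under 20 points. Of 11658712 CpGs with enough counted neighbours, 6 were switched to low in pigment cells and 0 to high, where a count of 0 allows up to 0.257 per 1000000. Between single libraries, iridophores were switched low against early NCCs at 321 CpGs and against late NCCs at 158, melanophores at 188 and 71, iridophores against melanophores at 13 and late against early NCCs at 11. In the opposite direction, where a base difference carried by the NCC strain would appear, iridophores were switched high against early NCCs at 62 CpGs and against late NCCs at 31, melanophores at 42 and 22, iridophores against melanophores at 0 and late against early NCCs at 7. Leaving out the 6 lone CpGs, too few to move counts of this size, again gave 17254 and 217 30-point tiles. With limits of 80% and 20% the lone CpGs numbered 205, and these were not left out. The part of base differences in the tiles was therefore not tested.

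Coverage itself differed between the sides at some CpGs. At least 10 reads in both NCC libraries and 0 in both pigment cell libraries were found at 11695 CpGs, against 918 the other way round, although melanophores had the deepest library. Of the 11695, 3604 lay in 481 stretches of at least 5 consecutive listed CpGs, up to 36 long, and of the 918, 139 lay in 21 such stretches. Such CpGs enter no tile value, since every counted CpG has reads in all libraries. Single libraries of the same side differed in this way too. At least 10 reads in late NCCs and 0 in early NCCs were found at 38879 CpGs, against 712 the other way round. For late NCCs against iridophores the counts were 31776 and 3181, and for late NCCs against melanophores 26862 and 6515. For melanophores against iridophores they were 2176 and 100. Strain, cell type and library cannot be told apart in these counts.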

How the data were processed

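The WGBS reads were trimmed with Cutadapt, aligned to danRer10 with Bismark and freed of duplicates with Picard by the authors, who then combined 2 replicates per cell type. For each CpG the authors deposited the methylation level as a fraction of reads, and the raw read counts were deposited without normalization. Sums over CpGs were 564793695 reads in iridophores and 794596680 in melanophores, against 683354245 in late and 521292949 in early NCCs. Of 23256360 listed CpGs, 16909511 had at least 5 reads in all 4 libraries. Methylated reads were recovered as level times reads. The ATAC-seq and mRNA-seq samples were not analysed here, and 0 other columns held per-sample values.

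Tile levels, counting variances and gaps were computed in Python 3.11.15 with NumPy 2.4.6. Tiles were tested in 1 fit with limma 3.58.1 in R 4.3.3, 2 pigment cell against 2 NCC libraries, with the log2 counting variance as trend, two-sided, with Benjamini-Hochberg adjustment. The study's methods give no test of this comparison. Named stretches were the 8 lower and 8 higher runs of adjacent 30-point tiles with the largest summed gaps. The tile rule, the lists and the tests were chosen with earlier results of these data known. Intervals and limits cover counting error only. Alternatives changed the minimum reads and CpGs, the tile width and start, the tile level, the gap, coverage limits, scaling, the test, chromosome 4, lone CpGs and each library. Whether positions count from 0 or 1 was not given in the sources used here. Marker promoters were not used here, for want of danRer10 gene coordinates.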

Additional observations from a re-analysis of the deposited data

How the results depend on the processing

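No paired analysis was possible because the replicates were combined within each library. The mean difference stayed below 0 under all alternatives that can give a value, from -4.49 to -3.50 points when 1 library was left out, and -0.456 after centring, while quantile normalization sets it to 0 by construction. Lower 30-point tiles numbered 10095 with quantile normalization, 6859 with 10 CpGs per tile, 10452 with 1000-bp tiles, 31832 and 9470 at gaps of 20 and 40 points, and 17710 to 34345 without 1 library. Higher ones numbered 369 after centring, 1120 with quantile normalization, 111 with 10 CpGs, 114 with 1000-bp tiles, 504 with median CpG levels, 1038 and 38 at gaps of 20 and 40 points, and 313 to 658 without 1 library. The share of tiles with the largest difference between the sides was 44.4% after centring, 41.1% with quantile normalization, 40.2% and 42.8% at 3 and 10 reads, 39.8% and 42.7% at 3 and 10 CpGs, 38.1% and 45.4% in 250-bp and 1000-bp tiles, 41.5% from pooled reads, 35.5% from median CpG levels, 39.0% without highly covered CpGs and 41.0% without chromosome 4. With limma, 0 tiles passed the adjusted threshold either way on the log2 ratio of methylated to unmethylated reads (277044 lower and 25580 higher at an unadjusted p under 0.05), 18813 lower and 1646 higher passed with 10 CpGs, 2477 and 57 with median CpG levels, 30046 higher after centring, 33616 higher with quantile normalization, and 0 to 135995 lower and 0 to 7049 higher without 1 library. A quasi-binomial F test on reads called 53453 lower and 3829 higher. Lone switched CpGs numbered 36 at 5 reads, 3 at 20 reads and 205 at 80% and 20%. The 16 named stretches were chosen for large gaps on these same reads and could hardly change direction. They kept it in all 96 alternatives, and 50 moved by more than counting error. Centring shifts every stretch by the same amount, more than each half-interval, so its part of the 50 was set in advance. The causes of the other shifts were not tested. With combined libraries no depth can give a spread between replicates, and at 5 CpGs per tile small differences lie within counting error.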
